A study of Mus musculus with 3 samples.

Results

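The glycolysis genes and Hif1a were described here in mouse spinal cord microglia, at the level of single cells. They were the 10 rows of the gene list whose symbol was Slc2a1, Hk2, Aldoa, Tpi1, Gapdh, Pgk1, Eno1, Pkm, Ldha or Hif1a, of 27998 genes in all. The cells came from lumbar cords of young adult C57BL/6 mice that were heterozygous for Cx3cr1-creER-yfp, and YFP (+) cells were sorted for droplet sequencing from naive mice and from mice 24 h and 48 h after sciatic nerve transection. Per the study's methods, cords of 3 animals were pooled for each group, and all groups carried the same knock-in allele at Cx3cr1, so every cell kept only 1 intact copy of that gene. After the sort, all cells were held in a serum-free medium with TGF-β2, IL34 and cholesterol. The same methods place all experiments after the start of tamoxifen injections, and do not say separately whether these mice received it. The deposited matrix joined 3 libraries that differed only in a barcode suffix, and no source used here tied a suffix to a time point. The suffixes are therefore called library 1, library 2 and library 3, of unknown time point. With 1 library of each kind there was no replicate, so no test between libraries existed, and every interval below covers counting error only.

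Glycolysis turns glucose into pyruvate in the cytosol and yields ATP without oxygen. The glucose transporter Slc2a1 brings in the sugar, hexokinase Hk2 traps it by phosphorylation, and Aldoa, Tpi1, Gapdh, Pgk1, Eno1 and Pkm act in that order along the route to pyruvate. Ldha reduces pyruvate to lactate and renews the NAD+ that Gapdh needs. Hif1a is the oxygen-regulated subunit of the HIF-1 transcription factor, which binds DNA together with Arnt and raises many glycolysis genes when oxygen is low or when macrophages are activated; its protein is controlled mostly by degradation, so its mRNA does not measure its activity.

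Library 1 held 609 cells with a median of 2218 UMIs (unique molecules counted), library 2 held 3591 cells with a median of 5952, and library 3 held 3322 cells with a median of 5742. To compare them at equal depth, each cell with at least 2000 UMIs was thinned to 2000 UMIs, which kept 408, 3569 and 3284 cells. In library 1 this left out 201 cells, or 33.0%. Levels are given as CPM, the UMIs of a gene per 1000000 UMIs of the thinned cells. The 10 microglia markers, such as P2ry12 and Tmem119, summed to 27562, 23307 and 26344 CPM in libraries 1, 2 and 3. The 6 monocyte markers summed to 7.35, 2.66 and 2.89 CPM, and of them only Ly6c2 was at 0 in all 3 libraries. The other lists, for perivascular macrophages, neutrophils, T or NK cells, neurons, astrocytes, oligodendrocyte lineage, endothelial and red blood cells, summed to between 0 and 33.1 CPM in each library. Library 3 stood apart in its early response and stress genes, such as Fos and Jun, which summed to 15575 CPM against 979 in library 1 and 1497 in library 2. Of the cell barcodes, 5 were shared between libraries 1 and 2, 3 between libraries 1 and 3, and 19 between libraries 2 and 3. Free RNA can add UMIs to any droplet, and no cell type that lacks these genes was present in which to measure it.

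Gapdh, Hk2, Pkm, Eno1, Aldoa and Ldha were the abundant members, and Pgk1 and Slc2a1 the rare ones. These are counts of molecules tagged at their 3′ ends, so a level does not grow with the length of the transcript. In library 2 the order ran from Gapdh at 667 CPM (95% Poisson interval 648 to 686) through Pkm at 404 (389 to 419), Hk2 at 335 (322 to 349), Eno1 at 314 (301 to 327), Aldoa at 309 (296 to 322), Ldha at 280 (268 to 293), Tpi1 at 160 (151 to 169) and Hif1a at 55.2 (49.9 to 60.9) to Slc2a1 at 21.3 (18.0 to 25.0) and Pgk1 at 21.0 (17.8 to 24.7). The intervals of Hk2 and Eno1, of Eno1 and Aldoa, and of Slc2a1 and Pgk1 overlapped, and those of all other neighbours in that order did not. In library 1 Hk2 led at 463 CPM (418 to 512), above Gapdh at 348 (309 to 391), and those intervals did not overlap. In library 3 Gapdh led at 590 CPM (572 to 609), above Hk2 at 396 (381 to 412).

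**Figure D1:**
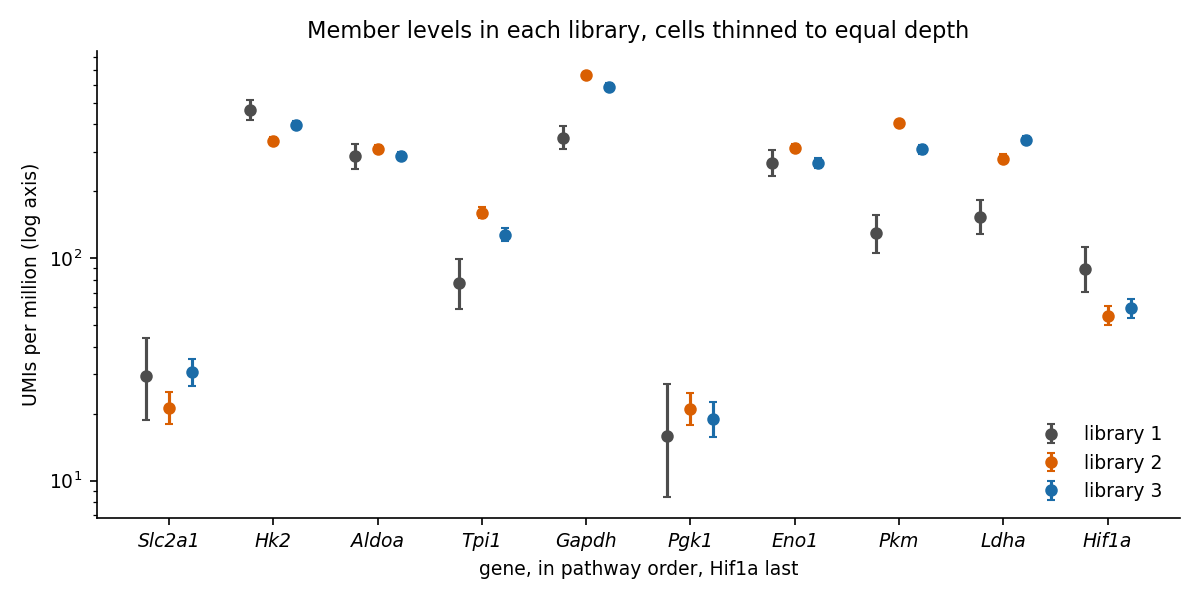
Level of each member in CPM (log axis) in libraries 1, 2 and 3, with cells thinned to 2000 UMIs; points are sums over all cells of a library and bars are 95% Poisson intervals for counting error. Tpi1, Gapdh, Pkm and Ldha lie lowest in library 1, Hk2 and Hif1a lie highest there, and Pkm spans 129 to 404 CPM.

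Of the transporter and the hexokinase, Hk2 was lower in library 2 than in library 1, and less so in library 3. Slc2a1 showed no detectable difference from library 1. Gene positions are given on GRCm38. Slc2a1 (chr4:119108711-119137983) was at 29.4 CPM, 21.3 and 30.8 in libraries 1, 2 and 3. It was lowest in library 2, and the ratio of library 3 over library 2 was 1.44 (1.16 to 1.79). This ratio lay past 1.5-fold in 4 of 11 alternative settings, among them 1.58 (1.26 to 1.97) on a second random draw and 2.23 (1.06 to 5.0) in cells with 2000 to 4000 UMIs. Its ratio of library 2 over library 1 was 0.724 with an interval of 0.469 to 1.16, so those levels could not be told apart at this depth. Hk2 (chr6:82725025-82774454) was at 463, 335 and 396 CPM in libraries 1, 2 and 3, and the intervals of the 3 libraries did not overlap. Its ratio was 0.723 (0.648 to 0.808) for library 2 over library 1 and 0.855 (0.767 to 0.955) for library 3 over library 1. Library 3 over library 2 was at 1.18 (1.12 to 1.25). The median ratio of all genes against library 1 was 0.948 in library 2 and 0.951 in library 3. Hk2 lay below that median in both, with 22.0% and 38.2% of genes lower still. The interval of library 3 over library 1 reached up to 1 with the median of gene ratios as the scale (ratio 0.899). It did so too with library 3 cells low in early response genes (ratio 0.890). In the other alternative settings it lay below 1. At least 1 Hk2 UMI was found in 60.8% (exact binomial interval 55.9 to 65.6), 48.4% (46.8 to 50.1) and 53.8% (52.1 to 55.5) of thinned cells in libraries 1, 2 and 3. Without thinning the shares were 69.6%, 84.6% and 85.7%, lowest in library 1, whose cells were the shallowest.

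Aldolase, which splits the phosphorylated sugar, differed little across libraries. Aldoa (chr7:126795234-126800751) was at 288 CPM, 309 and 288 in libraries 1, 2 and 3. The ratio of library 2 over library 1 was 1.07 (0.938 to 1.23), and that of library 3 over library 1 was 0.999 (0.872 to 1.15). Library 3 over library 2 was 0.931 (0.875 to 0.991). With cells thinned to 1000 UMIs, Aldoa moved to 1.32 (1.10 to 1.60) for library 2 over library 1. For library 3 over library 1 it was then at 1.19 (0.992 to 1.44). Enolase, which makes phosphoenolpyruvate, differed little: Eno1 (chr4:150236721-150248879) was at 267, 314 and 268 CPM, with a ratio of 1.17 (1.02 to 1.35) for library 2 over library 1 and 0.854 (0.802 to 0.910) for library 3 over library 2. In cells that were not dividing its ratio of library 2 over library 1 was 1.09 (0.935 to 1.27). Pgk1 (chrX:106187100-106203699), the kinase that gives the first ATP of the route, rested on 13, 150 and 124 UMIs in libraries 1, 2 and 3. Its levels were 15.9 (8.48 to 27.2), 21.0 and 18.9 CPM, and no difference was detectable at this depth.

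A block of 4 members was lower in library 1 than in both other libraries. Tpi1 (chr6:124810586-124814296), which interconverts the triose phosphates, was at 77.2 CPM, 160 and 127 in libraries 1, 2 and 3. Gapdh (chr6:125161715-125166467), the step that makes NADH, was at 348, 667 and 590 CPM. Pkm (chr9:59656368-59679375), the pyruvate kinase, had the widest range, at 129, 404 and 309 CPM. Ldha (chr7:46841475-46855627) was at 153, 280 and 340 CPM and was the member of this block that was higher in library 3 than in library 2. The Poisson intervals of library 1 and those of libraries 2 and 3 did not overlap for any of the 4. The 4 were grouped by these same levels, so this is not separate support. How many of all genes had such intervals was not counted. The ratio of library 2 over library 1 was 2.07 (1.61 to 2.71) for Tpi1, 1.92 (1.70 to 2.17) for Gapdh, 3.14 (2.58 to 3.85) for Pkm and 1.83 (1.53 to 2.21) for Ldha. The ratio of library 3 over library 1 was 1.65 (1.28 to 2.17) for Tpi1, 1.70 (1.5 to 1.92) for Gapdh, 2.40 (1.97 to 2.95) for Pkm and 2.22 (1.85 to 2.68) for Ldha. These 2 sets of ratios share library 1 and are not independent. The median share of mitochondrial UMIs per cell was also lowest in library 1 and highest in library 2, at 0.945%, 1.52% and 1.20%. Its part alone in these differences was not tested. With mitochondrial, ribosomal protein, and early response and stress genes all left out of the total, library 2 over library 1 was at 3.24 for Pkm. In that setting it was at 2.14 for Tpi1, 1.98 for Gapdh and 1.89 for Ldha.

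Between libraries 2 and 3 the block split. Tpi1, Gapdh and Pkm were lower in library 3, with ratios of 0.797 (0.728 to 0.872), 0.885 (0.848 to 0.923) and 0.764 (0.722 to 0.809), while Ldha was higher at 1.21 (1.14 to 1.29). The share of thinned cells with a Pkm UMI was 20.8% (17.0 to 25.1), 55.6% (54.0 to 57.3) and 45.3% (43.6 to 47.1) in libraries 1, 2 and 3. The unthinned shares for Pkm were 27.0%, 88.1% and 79.8%, with median depths of 2487, 5961 and 5768 UMIs in these cells. For Ldha the thinned shares were 24.8%, 42.6% and 49.0%, and the unthinned shares 31.4%, 79.4% and 82.4%.

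Hif1a (chr12:73901375-73947530) ran against the block. Its level was 89.5 CPM (70.1 to 112), 55.2 (49.9 to 60.9) and 59.5 (53.8 to 65.7) in libraries 1, 2 and 3. The library 1 interval lay above both others, which overlapped each other. The ratio was 0.617 (0.480 to 0.803) for library 2 over library 1, 0.665 (0.517 to 0.867) for library 3 over library 1 and 1.08 (0.935 to 1.24) for library 3 over library 2. Its level in library 1 came from 73 UMIs, and the ratio of library 3 over library 1 lay at the 1.5-fold line, past it in 4 of 11 alternative settings. With cells thinned to 1000 UMIs the intervals against library 1 held 1, at 0.702 (0.499 to 1.01) for library 2 and 0.755 (0.536 to 1.09) for library 3. A Hif1a UMI was present in 16.2%, 10.5% and 11.3% of the thinned cells of libraries 1, 2 and 3. The unthinned shares were 19.4%, 28.7% and 30.6%, lowest in library 1.

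**Figure D2:**
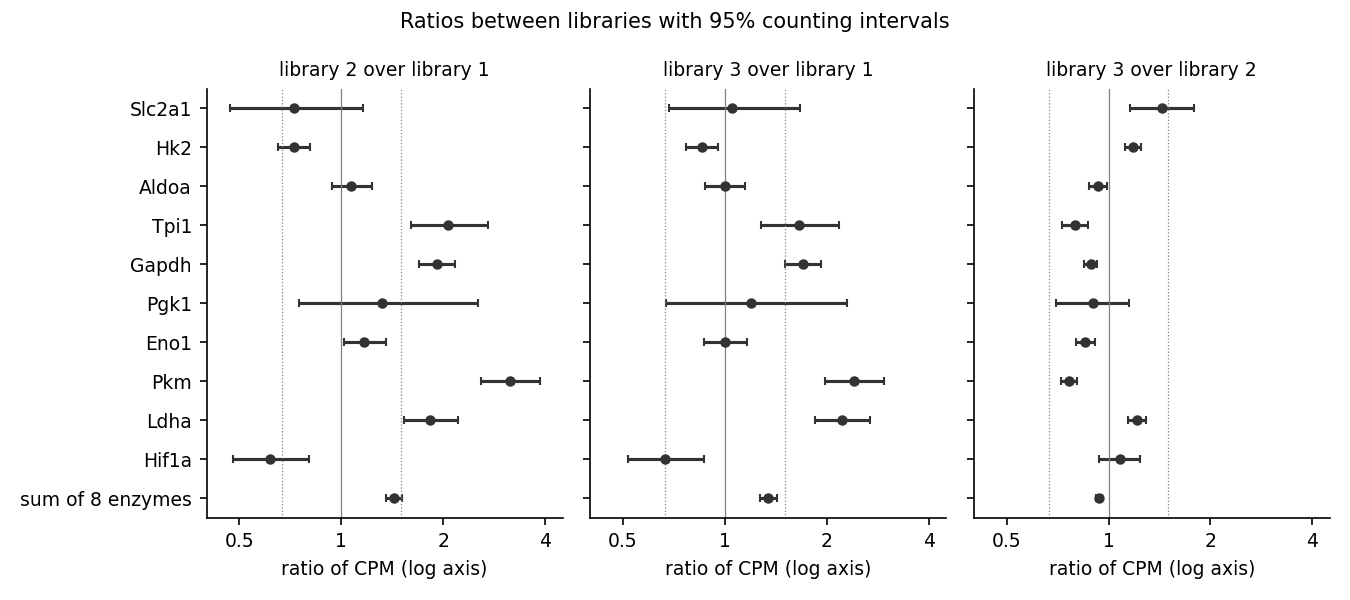
Ratio of CPM (log axis) of each member and of the sum of the 8 enzymes between libraries, with 95% exact conditional binomial intervals; the solid line marks a ratio of 1 and the dotted lines 1.5-fold either way. Pkm, Tpi1, Gapdh and Ldha lie right of the upper dotted line against library 1, Hif1a lies at or left of the lower one, and library 3 over library 2 stays between the lines for all 10 genes.

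Of the 10 members, 9 reached a mean of 20 CPM in the library comparisons (Pgk1 did not). In library 2 over library 1, 4 of 9 were at least 1.5-fold higher, where 11.9% of 6176 genes at that level were, and 1 of 9 was at least 1.5-fold lower, where 15.5% were. In library 3 over library 1 the same comparison gave 4 higher, beside 11.0% of 6131 genes, and 1 lower, beside 17.6%. In library 3 over library 2 no member passed 1.5-fold either way, beside 3.46% of 5982 genes higher and 4.08% lower. The median ratio of the 9 members was 1.17, 1.05 and 0.931 in these 3 comparisons, and that of all genes was 0.948, 0.951 and 0.988.

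The 8 enzymes summed (all members but Slc2a1 and Hif1a) were at 1741 CPM (1652 to 1834), 2489 (2453 to 2526) and 2336 (2300 to 2374) in libraries 1, 2 and 3. The sum was 1.43 (1.35 to 1.51) times as high in library 2 as in library 1 and 1.34 (1.27 to 1.42) times as high in library 3 as in library 1. Library 3 over library 2 was 0.939 (0.919 to 0.959). The make-up of the sum also differed. Hk2 gave 26.6%, 13.5% and 17.0% of the enzyme UMIs in libraries 1, 2 and 3, whereas Pkm gave 7.39%, 16.2% and 13.2%. Per thinned cell the sum had a median of 3, 5 and 4 UMIs in libraries 1, 2 and 3. No enzyme UMI was found in 4.66%, 0.700% and 1.28% of the cells of libraries 1, 2 and 3. The variance over the mean, which is 1 for pure counting noise, was 1.33 in library 1 and 1.13 in both others.

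**Figure D3:**
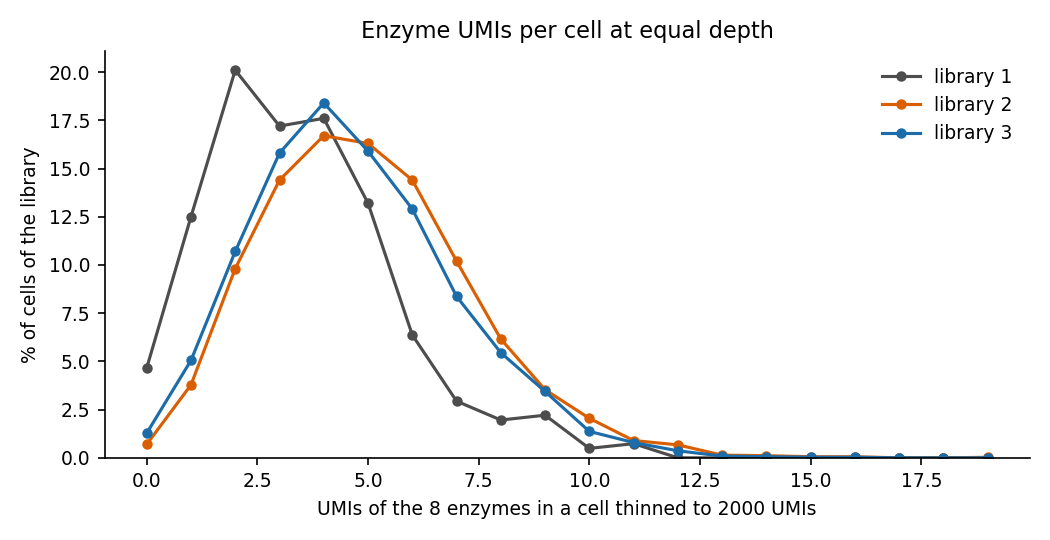
Share of the cells of each library (%) by the number of UMIs of the 8 enzymes in the cell, after thinning each cell to 2000 UMIs; each point is the share of 1 library's cells at that number. Library 1 is shifted to fewer UMIs, with 4.66% of its cells at 0.

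Before thinning, the kept cells of library 1 were shallower than those of the others. Among cells with 2000 to 4000 UMIs (399, 351 and 372 cells), a restriction chosen after the data were seen, the ratio of library 2 over library 1 was 2.73 (2.16 to 3.48) for Pkm, 1.98 (1.43 to 2.78) for Tpi1, 1.63 (1.39 to 1.92) for Gapdh, 1.63 (1.28 to 2.06) for Ldha and 0.577 (0.373 to 0.878) for Hif1a. For library 3 over library 1 in these cells, Gapdh was at 1.41 (1.20 to 1.66), under 1.5-fold, and Hif1a at 0.700 (0.470 to 1.03), an interval that held 1. Library 3 was also restricted to its cells below its own median of early response and stress UMIs. This left Pkm at 2.46 (2.01 to 3.03) and Hif1a at 0.706 (0.537 to 0.936) against library 1. That cut is relative to library 3, and the level of these genes in the cells kept was not matched to library 1. Beyond this restriction and the total that left these genes out, the part of the early response genes in the library 3 values was not tested.

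The promoters of the 5 members that differed most from library 1 are shown because the core of the hypoxia response element, ACGTG or GCGTG, is the sequence that HIF-1 binds. Windows run from 250 bases before to 50 bases after a RefSeq start site on GRCm38.p6, on the strand of the gene, and for Pkm and Ldha, which have 2 windows each, the first listed is printed. Capitals mark each match to either core on either strand. The windows are chr6:124814109-124814408 for Tpi1 and chr6:125165724-125166023 for Gapdh, both on the minus strand, and chr9:59656326-59656625 for Pkm, chr7:46845554-46845853 for Ldha and chr12:73907617-73907916 for Hif1a on the plus strand.
Tpi1: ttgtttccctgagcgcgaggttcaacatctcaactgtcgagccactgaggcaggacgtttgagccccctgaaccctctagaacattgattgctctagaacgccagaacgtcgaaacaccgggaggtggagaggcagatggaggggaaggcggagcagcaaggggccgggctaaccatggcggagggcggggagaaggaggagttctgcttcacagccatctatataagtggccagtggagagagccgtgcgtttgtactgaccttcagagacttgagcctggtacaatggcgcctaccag
Gapdh: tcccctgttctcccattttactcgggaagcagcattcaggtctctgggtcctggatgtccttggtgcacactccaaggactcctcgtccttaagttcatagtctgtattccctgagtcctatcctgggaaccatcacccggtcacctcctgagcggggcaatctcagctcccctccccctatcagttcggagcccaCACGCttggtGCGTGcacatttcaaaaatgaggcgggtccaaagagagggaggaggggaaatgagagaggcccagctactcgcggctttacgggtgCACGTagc
Pkm: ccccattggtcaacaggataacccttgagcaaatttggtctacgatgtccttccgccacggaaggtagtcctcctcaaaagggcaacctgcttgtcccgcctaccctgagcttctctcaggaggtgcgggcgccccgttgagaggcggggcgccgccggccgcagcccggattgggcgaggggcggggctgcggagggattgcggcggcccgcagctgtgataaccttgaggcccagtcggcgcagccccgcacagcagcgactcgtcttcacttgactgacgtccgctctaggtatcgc
Ldha: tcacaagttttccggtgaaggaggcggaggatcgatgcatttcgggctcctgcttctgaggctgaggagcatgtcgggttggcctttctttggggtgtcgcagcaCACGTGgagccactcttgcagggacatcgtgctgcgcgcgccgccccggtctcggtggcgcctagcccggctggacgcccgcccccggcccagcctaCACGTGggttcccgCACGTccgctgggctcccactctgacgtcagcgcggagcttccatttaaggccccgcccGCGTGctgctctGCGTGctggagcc
Hif1a: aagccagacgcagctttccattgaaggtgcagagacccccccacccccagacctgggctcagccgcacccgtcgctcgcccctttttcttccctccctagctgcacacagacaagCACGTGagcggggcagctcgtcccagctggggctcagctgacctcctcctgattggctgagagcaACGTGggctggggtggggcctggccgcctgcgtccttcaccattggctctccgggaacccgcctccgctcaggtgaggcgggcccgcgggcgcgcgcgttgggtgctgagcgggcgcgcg

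Matches were found in some of these windows and not in others. Tpi1 and the first Pkm window held none, and the second Pkm window held 2. Gapdh held 3 matches. The first Ldha window held 7, 4 of them from its 2 copies of the palindrome CACGTG, which counts on both strands, and the second Ldha window held 2 and no palindrome. Hif1a held 3, with 1 such palindrome. Of the other members, Hk2, Pgk1, Slc2a1 and each of the 3 windows of Eno1 held 2, and Aldoa held 0, 1 and 1 in its 3 windows. Of all 32851 promoter windows of this length, 43.8% held at least 1 match and 8.93% held 3 or more, while CACGTG was in 7.15%. A match is a description of the letters only.

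Dividing cells were compared with other cells of the same library. A cell was called dividing when it held at least 3 UMIs of 49 proliferation genes, 22 of DNA replication and 27 of mitosis, none of them a member. By this rule 62.5% of library 2 (2230 of 3569 cells) and 7.16% of library 3 (235 of 3284) were called dividing. The class did not hold the same kind of cell in both, as mitosis genes led in only 5 of the 235 library 3 cells. The proliferation marker Mki67 was at 17.0 CPM in those 235 cells. In library 2 it was at 106 CPM in dividing and 27.3 CPM in other cells. Library 1 had 12 dividing cells of 408 (2.94%), too few to compare. The cut is a range and not a type of cell, and 688 cells of library 2 lay just under it with 2 such UMIs and 676 on it with 3. With so few such UMIs per cell, counting alone can move a cell across the cut. A ratio of dividing over other cells near 1 therefore does not show that dividing cells match cells at rest.

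At this cut, most glycolysis genes were almost as high in other cells as in dividing cells of library 2. Of the 1339 other cells, 1156 held 1 to 2 proliferation UMIs and 183 held 0, so the classes were not cleanly apart. Gapdh differed most among the well-measured members, at 702 CPM (677 to 727) in dividing and 608 (579 to 639) in other cells, a ratio of 1.15 (1.09 to 1.23). Eno1 was at 325 and 294 CPM, a ratio of 1.10 (1.01 to 1.21), but the interval held 1 on a second random draw (1.03, 0.948 to 1.13) and in 5 other settings. For Pkm, at 416 and 385 CPM, the ratio was 1.08 and its interval reached down to 1 (upper end 1.17). For the other enzymes the interval of the ratio held 1 in thinned cells. Without thinning, the interval lay below 1 for Hk2 and above 1 for Ldha, Tpi1 and Pkm. Hk2 was at 333 and 338 CPM (0.984, 0.905 to 1.07), Aldoa at 314 and 301 CPM (1.04, 0.956 to 1.14), Tpi1 at 161 and 158 CPM (1.02, 0.906 to 1.16) and Ldha at 282 and 276 CPM (1.02, 0.932 to 1.12). Pgk1 (21.1 and 20.9 CPM) and Slc2a1 (20.2 and 23.2 CPM) had intervals of 0.716 to 1.43 and 0.624 to 1.22. The Pgk1 ratio depended on the draw, at 1.5 (1.04 to 2.20) on a second one and 1.35 (1.12 to 1.64) without thinning. Hif1a was at 54.3 CPM in dividing and 56.8 in other cells, a ratio of 0.956 (0.777 to 1.18).

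In sum the 8 enzymes were at 2554 CPM (2507 to 2601) in dividing and 2381 (2323 to 2440) in other cells of library 2, a ratio of 1.07 (1.04 to 1.11). In cells with 2000 to 4000 UMIs this ratio was 0.982 (0.888 to 1.09), on the other side of 1. None of the 10 members passed 1.5-fold, beside 1.66% of 6025 genes that did so upward and 0.216% downward. In library 3 no interval of a member left out 1 and none of 9 members passed 1.5-fold, beside 5.48% of 5908 genes upward and 3.47% downward. The enzyme sum there was at 2434 CPM (2295 to 2579) in dividing and 2329 (2291 to 2367) in other cells, a ratio of 1.05 (0.983 to 1.11). Ldha was at 391 against 336 CPM (1.17, 0.998 to 1.36), and Hif1a at 72.3 against 58.5 CPM (1.24, 0.842 to 1.76) on 34 UMIs in dividing cells. Dividing cells of library 2 had a median of 6448 UMIs before thinning and other cells 5622.

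**Figure D4:**
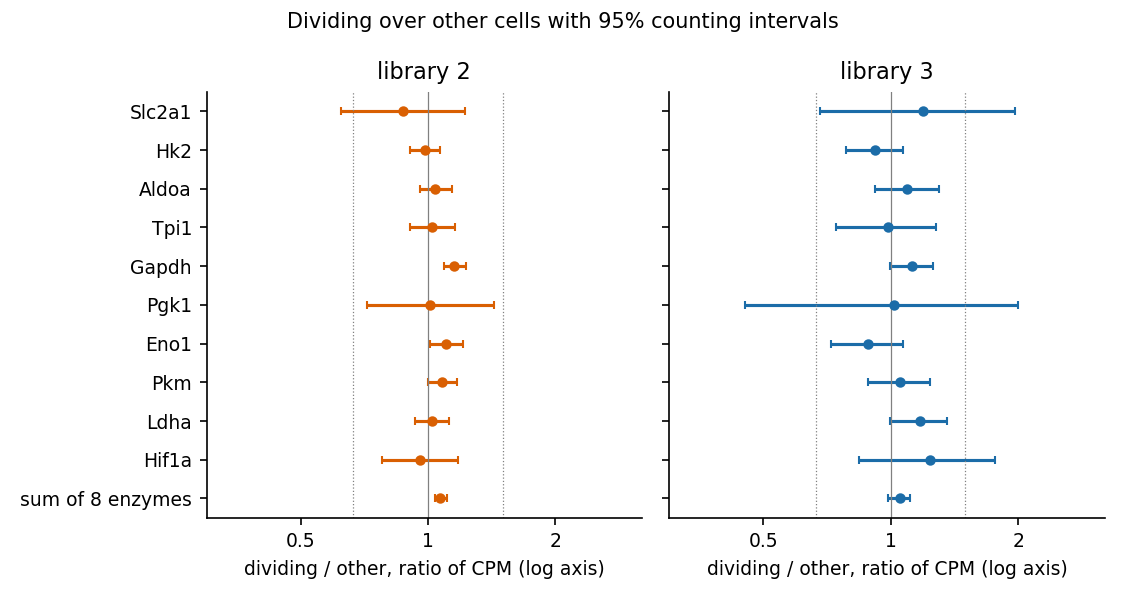
Ratio of CPM (log axis) in dividing over other cells of libraries 2 and 3 for each member and for the sum of the 8 enzymes, with 95% exact conditional binomial intervals; the solid line marks 1 and the dotted lines 1.5-fold. In library 2 the intervals of Gapdh, Eno1 and the sum lie above 1, and in library 3 no interval leaves out 1.

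Within library 2 Gapdh was followed over finer steps of the proliferation UMIs. It was at 678 CPM (596 to 767) in the 183 cells with 0, 597 (566 to 630) with 1 to 2, 663 (634 to 692) with 3 to 5, 766 (716 to 820) with 6 to 10 and 828 (737 to 927) in the 183 cells with over 10. The level was lowest at 1 to 2 UMIs, not at 0, and highest at over 10. Hk2 went the other way at the top, at 325 CPM (269 to 389), 340, 348, 316 and 260 (210 to 317) over the same steps. Hif1a stayed between 52.8 and 60.1 CPM, and the enzyme sum was at 2505, 2362, 2480, 2710 and 2689 CPM.

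**Figure D5:**
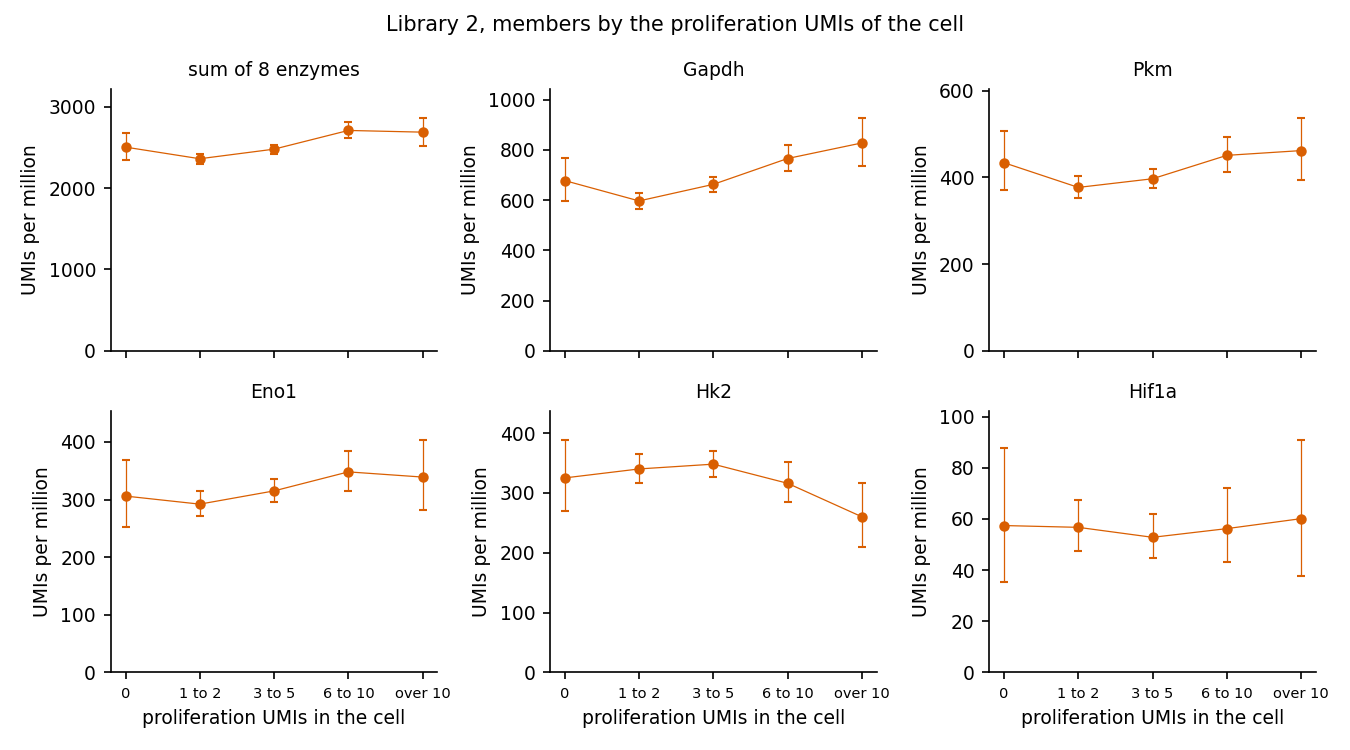
Level in CPM of the enzyme sum, Gapdh, Pkm, Eno1, Hk2 and Hif1a in library 2 cells grouped by the number of proliferation UMIs in the thinned cell, with 95% Poisson intervals. Gapdh ends at 828 CPM and Hk2 at 260 CPM in cells with over 10 such UMIs, and Hif1a is flat.

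Dividing cells of library 2 were also split by the part of the list that led, with 915 cells led by replication genes and 1073 by mitosis genes. In library 3 the replication genes led in 228 of 235 dividing cells. Hif1a of library 2 was at 47.1 CPM in mitosis-led and 64.5 CPM in replication-led cells, a ratio of 0.730 (0.554 to 0.960). Hk2 was at 320 and 362 CPM, a ratio of 0.882 (0.792 to 0.983). None of the 10 members passed 1.5-fold, beside 1.30% of 6068 genes higher and 0.956% lower. For the other 8 members the interval of this ratio held 1, and the enzyme sum was at 2587 and 2552 CPM.

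The library ratios were also taken over the cells under the dividing cut, which were not alike in the libraries. In library 2, 1156 of these 1339 cells held 1 to 2 proliferation UMIs, against 132 of 396 in library 1, and the proliferation marker Mki67 was at 27.3 CPM, against 0 in library 1 and 0.492 in library 3. Library 2 over library 1 was at 3.02 (2.46 to 3.74) for Pkm, 2.08 (1.58 to 2.77) for Tpi1, 1.75 (1.54 to 1.99) for Gapdh, 1.79 (1.48 to 2.19) for Ldha and 0.633 (0.475 to 0.851) for Hif1a. For library 3 over library 2 the enzyme sum was at 0.978 (0.949 to 1.01) in these cells, and Gapdh at 0.961 (0.906 to 1.02), so both intervals then held 1. The intervals of Slc2a1 at 1.31 (0.978 to 1.78) and Aldoa at 0.950 (0.873 to 1.03) also held 1 there, and that of Eno1, at 0.918, reached up to 1. Pkm and Tpi1 stayed lower in library 3 at 0.800 (0.741 to 0.864) and 0.810 (0.718 to 0.914), and Ldha higher at 1.21 (1.12 to 1.32).

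Myc, a transcription factor studied in these cells that is known to raise glycolysis genes, was set beside the members. In library 3, with 518 cells that held a Myc UMI and 2766 that held none, Eno1 was at 311 and 260 CPM, a ratio of 1.20 (1.06 to 1.35). Gapdh was at 638 and 581 CPM, a ratio of 1.10 (1.01 to 1.19). Ldha, at 330 and 341 CPM, gave 0.967 (0.860 to 1.09), and the enzyme sum gave 1.05 (1.01 to 1.10). None of 9 members passed 1.5-fold in library 3, beside 1.35% of 5933 genes higher and 1.10% lower. In library 2, with 271 cells that held a Myc UMI, the enzyme sum gave 1.02 (0.969 to 1.08), and no member had an interval that left out 1. Slc2a1, at 1.63 (0.940 to 2.68) on 18 UMIs in those cells, was the only 1 of 10 members past 1.5-fold. Of 6043 genes, 3.41% were that much higher and 3.03% lower. Among library 2 cells under the dividing cut, Ldha gave 1.39 (1.09 to 1.76) and the other 9 intervals held 1. Slc2a1, at 1.98 (0.857 to 4.04), was again the only 1 of 10 past 1.5-fold, beside 9.99% of 5958 genes higher and 9.08% lower. In library 1, with 23 cells that held a Myc UMI, 6 of 9 members were at least 1.5-fold higher in them and none lower, beside 27.9% of 6029 genes higher and 20.2% lower. Only the interval of Hif1a left out 1 among the 10 members there.

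Across cells the variance of most members was close to the mean. Their ratio in library 2 lay between 0.980 for Aldoa and 1.15 for Gapdh, and Gapdh reached 1.20 in dividing cells. Over the 3569 cells of library 2 the correlations between the 45 pairs of members ran from -0.04 to 0.05 with a median of 0.01. The points share a library and a fixed depth of 2000 UMIs, and with so few UMIs per cell such values are no finding.

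Of the other glycolysis genes, 20 more enzymes and isozymes were examined, 6 of which had no UMI in the thinned cells. Isozymes of the members differed widely in level. Ldhb, the lactate dehydrogenase subunit of oxidative tissues, was higher than Ldha in every library at 438, 497 and 450 CPM. Its ratio was 1.14 (1.02 to 1.27) for library 2 over library 1 and 1.03 (0.922 to 1.15) for library 3 over library 1. Hk1 (7.35, 10.4 and 13.2 CPM) was far below Hk2, Slc2a3 (14.7, 4.06 and 5.94 CPM) was below Slc2a1, and Aldoc (4.90, 2.80 and 1.37 CPM) was near its floor. Gpi1, the isomerase after hexokinase, was at 125, 117 and 113 CPM, and Pgam1, the mutase before enolase, at 112, 143 and 122 CPM. The ratio of library 2 over library 1 was 0.934 (0.759 to 1.16) for Gpi1 and 1.28 (1.03 to 1.61) for Pgam1. Hk3, the hexokinase of myeloid cells, was lower in both other libraries than in library 1, at 45.3, 22.8 and 21.6 CPM, with a ratio of 0.504 (0.351 to 0.741) for library 2. It was the only 1 of the 5 such genes with a mean of 20 CPM to pass 1.5-fold, in library 2 and in library 3 against library 1. Of all genes at that level, 15.5% and 17.6% were at least 1.5-fold lower in these comparisons.

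Of 20 regulators and transporters around the route, 10 reached 20 CPM. Pfkfb3, which makes the activator of phosphofructokinase, was at 71.1, 36.4 and 70.2 CPM and so was lowest in library 2, with 0.512 (0.384 to 0.694) against library 1 and 1.93 (1.65 to 2.25) for library 3 over library 2. It was the only list gene of the 10 past 1.5-fold in either of those comparisons. Of all genes, 15.5% were that much lower in library 2 over library 1 and 3.46% higher in library 3 over library 2. Against library 1, library 3 was lower in Pdk1, the kinase that holds back pyruvate dehydrogenase, at 0.618 (0.499 to 0.770), and in Pfkfb4 at 0.645 (0.501 to 0.840), and higher in the lactate exporter Slc16a3 at 1.54 (1.14 to 2.12). These were 2 lower and 1 higher of the 10, beside 17.6% of all genes lower and 11.0% higher. The fructose transporter Slc2a5, at 249, 225 and 265 CPM, and the mitochondrial pyruvate carrier Mpc1, at 298, 328 and 280 CPM, were the abundant genes of this list. Rarer list genes had larger ratios of library 2 over library 1, on few library 1 UMIs. Slc2a6 was at 8.17 (2.22 to 68.1) on 2 such UMIs and Pdk3 at 3.32 (1.26 to 12.4) on 4. Slc2a3 lay the other way at 0.276 (0.137 to 0.594) on 12. Pfkfb4 was also lower in dividing than in other cells of library 2, at 0.730 (0.607 to 0.879), and so was Pfkfb3 at 0.757 (0.589 to 0.976). Pdk3, with a mean under 20 CPM, was higher in dividing cells at 1.72 (1.12 to 2.70). None of the 10 list genes at 20 CPM passed 1.5-fold there, beside 1.66% of all genes higher and 0.216% lower.

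Around Hif1a, 3 of 8 partners and regulators reached 20 CPM against library 1. Its partner Arnt was at 28.2, 17.0 and 17.7 CPM, a ratio of 0.601 (0.383 to 0.985) in library 2, and Vhl, which marks the protein for degradation, was at 72.3, 53.8 and 46.1 CPM. The other of the 3, the prolyl hydroxylase Egln2, lay the other way at 55.1, 81.8 and 81.3 CPM, with ratios of 1.48 (1.09 to 2.06) in library 2 and 1.47 (1.09 to 2.05) in library 3. Egln2 was named after its values were seen. Of the 3, 1 was at least 1.5-fold lower in library 2 and 2 in library 3, beside 15.5% and 17.6% of all genes. Of 16 HIF target genes outside glycolysis, 8 reached 20 CPM against library 1, and they did not move together. In library 2, 1 of the 8 was at least 1.5-fold higher and 0 lower, beside 11.9% and 15.5% of all genes. In library 3, 1 was higher and 2 lower, beside 11.0% and 17.6%. Higd1a, a mitochondrial protein, was 1.94 (1.49 to 2.56) times as high in library 2 and 1.58 (1.22 to 2.1) times in library 3. Bnip3l, a receptor for removal of mitochondria, was at 192, 130 and 110 CPM, a ratio of 0.570 (0.479 to 0.682) in library 3, and Plin2, a lipid droplet protein, was at 0.664 (0.423 to 1.09) there. P4ha1, a collagen prolyl hydroxylase, was at 180, 126 and 173 CPM and passed 1.5-fold in none of these comparisons. Ddit4, with a mean under 20 CPM, was at 11.0, 23.7 and 10.2 CPM. Its ratio was 2.15 (1.10 to 4.78) for library 2 over library 1 and 0.431 (0.320 to 0.575) for library 3 over library 2.

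Genes with the pattern most like each member were sought among 3215 genes over 5 groups of cells (libraries 2 and 3 dividing and other, library 1 other), by the root mean square difference of centred log2 CPM. For Pkm the nearest were Mif (0.0883), Nedd8 (0.116) and Cd72 (0.117). Pkm thus had no gene as near as the other 7 members described here had, for which the nearest lay between 0.0205 and 0.0524. The difference was not scaled for range, and Pkm had the widest range of the members. Its larger values therefore do not show a pattern particular to Pkm. For Ldha they were Calr, Cars and Mthfd2, for Gapdh Nudc, Cox5a and Dynll2, and for Tpi1 mt-Co3, Gm26917 and Bola2. For Hif1a they were Adam17, Dync1i2 and Ost4, and for Hk2 1700017B05Rik, Mtdh and Nckap1l. For Aldoa they were Sys1, Slc25a3 and Rer1, and for Eno1 Bclaf1, Cldnd1 and Ndufb4. Pgk1 and Slc2a1 had too few UMIs for such a comparison. The 5 groups came from 3 libraries and are not independent points.

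For Gapdh and Eno1 the counts themselves are less certain. The last 500 bases of the Gapdh transcript had a near copy (97% identity over at least 91 bases) in 64 other annotated genes, 60 of them pseudogenes. Of the 64 genes, 2 were in the deposited gene list, Gm3839 and Vmn2r60. The last 500 bases of Eno1 had a near copy in 2 genes, among them Eno1b, which was at 4.90, 11.3 and 12.5 CPM. The other 8 members had none. Reads that fit a gene and its copy equally well can be dropped or split, and the size of that loss was not tested.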

How the data were processed

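The data are UMI counts per gene and cell from 3′ single-cell libraries of sorted microglia, deposited by the authors as 1 raw count matrix of 27998 genes and 7522 cells; the submitters' processing notes name Cell Ranger 2.1.1 and mm10. The labels and the study's methods name different versions of the library kit, and the methods also list a 72 h group, which was not analysed here. Genotype, pooling, tamoxifen and medium were taken from those methods. The study's data statement names a different series from the one used here. Whether these methods describe this matrix in every detail is therefore not certain. Whether libraries were down-sampled is not given in the sources used here. Total counts were 1343055, 24097543 and 19769170 UMIs in libraries 1, 2 and 3.

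Cells with at least 200 genes, 500 UMIs and at most 10% mitochondrial UMIs passed, and those with 2000 UMIs were thinned to 2000 without replacement (numpy 2.4.6, scipy 1.17.1, Python 3.11.15). The study's methods state that doublets were excluded at the sort, and no doublet caller was run. Levels carry exact Poisson intervals, shares Clopper-Pearson intervals and ratios exact conditional binomial intervals (all 95%), which cover counting error only. No test, p-value or standard error was computed, because each suffix is 1 library of pooled animals. The 3 groups of samples in the labels (naive, 24 h and 48 h) could not be matched to suffixes. The share of all genes past 1.5-fold was taken over genes with a mean of 20 CPM. The scripts were tested on simulated data.

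The members, gene lists and class rules were chosen with earlier results of these data known. Named beyond the members were isozymes and list genes over 100 CPM in a library. Up to 3 list genes per comparison between libraries were also named, by the largest change past 1.5-fold. These had at least 50 UMIs and a mean of 20 CPM, so larger changes in rarer list genes were mostly left out. The 3 genes nearest each member in pattern were named too (not given for Pgk1 and Slc2a1, which had too few UMIs). Of 50 proliferation genes 49 were found (Knl1 was not). Gene positions are from GENCODE M21 on GRCm38, promoters from RefSeq (windows matched for 10 of 10 members), and near copies were searched with BLAST 2.17.0. No protein sequence was used here. Alternatives varied the depth, the random draw, the cell filters, the scaling, the sum and the dividing class.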

Additional observations from a re-analysis of the deposited data

Results flagged for a closer look

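Hif1a differed in its relation to Myc between libraries, with counting intervals on opposite sides of 1. In library 1 it was 3.29 (1.61 to 6.18) times as high in the 23 cells with a Myc UMI as in the 385 without, at 261 against 79.2 CPM. In library 3 the ratio was 0.730 (0.526 to 0.992), at 45.4 against 62.2 CPM in 518 and 2766 cells, and in library 2 it was 1.11 (0.754 to 1.59). The library 1 value rests on 12 Hif1a UMIs in 10 cells, no cell having more than 2. The difference between the libraries was not tested, and these were 2 of 30 such ratios, for 10 genes in 3 libraries. None of the 30 was recomputed with another random draw, depth or scale. The enzyme sum, and the ratios of dividing over other cells in libraries 2 and 3, were searched in the same way. In library 1, 27.9% of 6029 genes were at least 1.5-fold higher in the cells with a Myc UMI and 20.2% were lower.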

How the results depend on the processing

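Over 55 ratios there were 626 alternative values, and 569 lay within the counting interval of the value reported. These were the ratios between libraries and of dividing over other cells. Ratios by Myc UMI, and of mitosis-led over replication-led cells, were not among them and were not recomputed. Some settings could hardly move a value. Leaving out the gene and mitochondrial filter kept the same cells (408, 3569 and 3284), and the strict filter kept 408, 3564 and 3282. A change of direction was sought only in ratios past 1.5-fold, and none of those crossed 1. The ratio of the enzyme sum for library 2 over library 1 (1.43) became 1.30 in cells with 2000 to 4000 UMIs, 1.31 without Gapdh and 1.57 as the median of the 8 gene ratios. For library 3 over library 1 (1.34) the same alternatives gave 1.24, 1.25 and 1.42. For library 3 over library 2 (0.939) the sum was at 0.961 without cells over 10000 UMIs, 0.892 as the median of gene ratios and 0.978 in cells that were not dividing. It was at 0.959 with library 3 cells below the library 3 median of early response and stress UMIs. For dividing over other cells in library 2 (1.07) the sum was at 1.12 when thinned to 1000 UMIs, 1.04 without cells over 10000 UMIs, 0.982 in cells with 2000 to 4000 UMIs, 1.03 as the median of gene ratios, 1.11 with at least 5 proliferation UMIs and 1.02 against other cells with 0 such UMIs. Hif1a in dividing over other cells (0.956) was at 1.39 (0.675 to 2.91) in cells with 2000 to 4000 UMIs. The cause of these moves was not tested. The alternatives on 2000 to 4000 UMIs and on early response genes were chosen after seeing the data. Of 45 ratios of single genes other than Hif1a, 34 stayed on the same side of 1.5-fold in all their alternatives. Unthinned, Hk2 in dividing over other cells of library 2 was at 0.920 (0.878 to 0.964), Ldha at 1.09 (1.03 to 1.14), Tpi1 at 1.09 (1.02 to 1.17) and Pkm at 1.10 (1.05 to 1.15), all with intervals that left out 1.

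With genes down to 5 CPM, the share of all genes past 1.5-fold was 4.67% higher and 7.88% lower for library 3 over library 2, 4.79% and 1.91% for dividing cells of library 2, 10.5% and 10.1% for those of library 3, 4.66% and 4.20% for mitosis-led over replication-led cells, and 29.3% and 32.6% for cells of library 1 with a Myc UMI. For libraries 2 and 3 over library 1 it was within 1.5 times of the values reported. No paired analysis was possible because each suffix is 1 library and no replicate exists. Depth limits Pgk1 and Slc2a1 most, with 13 and 24 UMIs in library 1.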
